A study of Mus musculus with 12 samples.

Results

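Smooth muscle cells give arteries and veins of the heart their tone, and pericytes sit on the capillaries. The genes described here are 6 contractile genes of smooth muscle (Acta2, Tagln, Myh11, Cnn1, Mylk and Smtn) and 3 markers of pericytes (Pdgfrb, Rgs5 and Cspg4), chosen by name. Every array probe whose annotated gene symbol was 1 of these 9 was taken, which gave 22 of the array's 45281 probes for 9 of its 19057 named genes. The contractile genes had 19 of these probes and the pericyte markers 3. At 1 week after induction of an expanded repeat RNA in mouse hearts, the 9 genes did not move as a block: all 4 measured probes of Acta2 rose, while probes of Smtn, Myh11 and Mylk fell, in a comparison that called 52.8% of all measured probes.

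Gene expression was measured with Illumina bead arrays in 12 mouse hearts to find transcripts that differ in mice made to model the heart disease of myotonic dystrophy type 1, which an expanded CTG repeat causes. All animals carried the strain label FVB. A group of 3 hearts was taken 72 h, and another group of 3 hearts 1 week, after induction of the repeat RNA in mice with the EpA960 and MCM transgenes. Their age was 2 to 4 months and their dose of tamoxifen 20 mg/kg, as 1 injection or as 5 on consecutive days, and the labels do not tie a schedule to a time. MCM is a Cre recombinase that tamoxifen activates. The labels call the model heart-specific, and the promoter that drives MCM is not named in them. The controls were 3 MCM hearts labelled untreated, without a stated age, so in any comparison with them tamoxifen and repeat RNA cannot be told apart. The remaining hearts were wildtype, 2 adult and 1 from embryonic day 14 (E14). Nothing in the labels says more about how the animals of a group were bred or housed, so a p-value measures the spread between these hearts. The E14 heart is a single array, was assumed to vary like the other groups, and has no replicate of its own.

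Per array, 14202 to 16774 probes were detected (detection p below 0.01), with 41 or 42 beads behind the median probe. Arrays of a group correlated at 0.962 to 0.993 across measured probes. All 8 measured cardiomyocyte markers were detected on all 12 arrays. Myh11, the myosin of smooth muscle, was detected on all 12 arrays too, whereas Cnn1 was detected on none. Replicate 2 of the 72 h group stood apart: its array weight, which falls as an array strays from its group, was 0.171 against 5.85 for replicate 1. The summed signal of 8 macrophage and leukocyte markers was 13.82 on a log2 scale in that heart, against 12.40 and 12.05 in the other 72 h hearts. Replicate 3 of the MCM group also stood apart, with a summed log2 signal of 6 atrial markers of 14.54 against 16.87 and 17.18 in the other MCM hearts. The same sum was 15.17 in 72 h replicate 3, against 17.11 and 16.89 in the other 72 h hearts.

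Contractile genes of smooth muscle encode the actin filament, the myosin motor and proteins that regulate both. Many of them carry CArG boxes, which bind serum response factor (SRF), and myocardin is its coactivator in smooth and heart muscle. Acta2 is also expressed in embryonic heart muscle and in the myofibroblasts of scars, so it is less specific to smooth muscle than Myh11. Pericytes are recruited to capillaries by PDGF-B, a ligand released by endothelium, through the receptor encoded by Pdgfrb.

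The promoter stretch of Acta2, the gene that rose, and that of Smtn, the gene that fell most, are shown because these genes moved in opposite directions. Both are the 250 bases before the gene start in RefSeq (build GRCm38.p6), read 5′ to 3′ on the gene's strand, with CArG boxes in capitals.
Acta2, chr19:34255374-34255623, minus strand: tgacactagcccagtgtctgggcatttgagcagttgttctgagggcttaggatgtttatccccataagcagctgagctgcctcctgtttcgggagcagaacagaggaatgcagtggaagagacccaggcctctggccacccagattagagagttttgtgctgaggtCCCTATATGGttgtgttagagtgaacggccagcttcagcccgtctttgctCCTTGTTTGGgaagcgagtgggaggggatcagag
Smtn, chr11:3539293-3539542, minus strand: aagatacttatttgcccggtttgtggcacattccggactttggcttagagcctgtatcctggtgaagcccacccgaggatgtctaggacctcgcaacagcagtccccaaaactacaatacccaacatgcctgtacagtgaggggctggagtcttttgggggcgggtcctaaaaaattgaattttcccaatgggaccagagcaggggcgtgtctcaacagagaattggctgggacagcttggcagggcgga
A CArG box was searched on both strands as CC, 6 core bases of A or T with at most 1 C or G among them, and GG. The Acta2 stretch held 2 such boxes, CCCTATATGG starting 84 bases and CCTTGTTTGG starting 34 bases before the gene start. Each had 1 core base that is C or G, so neither met the strict form, in which the whole core is A or T. The Smtn stretch held none. Among 32851 promoter windows, each from 250 bases before to 50 after a gene start,, 9.98% held at least 1 box of this form, 0.822% held at least 2, and 1.63% held a strict one. The motif CATTCC, searched on both strands and present in 14.7% of windows, occurred once each in the windows of Acta2, Smtn and Mylk. RefSeq windows are reported for 6 of the 9 genes, and not for Tagln, Myh11 and Pdgfrb. Those of Mylk, Cnn1, Rgs5 and Cspg4 held no CArG box.

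Of the 22 probes, 15 were measured, meaning detected on every array of at least 1 group: 4 of Acta2, 3 each of Mylk and Smtn, and 1 each of Tagln, Myh11, Pdgfrb, Rgs5 and Cspg4. The other 7 were not detected on any array. They are both remaining Acta2 probes (ILMN_1236619 and ILMN_1237242) and 1 probe each of Tagln (ILMN_1215145), Myh11 (ILMN_1224007), Mylk (ILMN_2553561), Smtn (ILMN_2484535) and Cnn1 (ILMN_1221148). Cnn1, calponin, an actin-binding protein of differentiated smooth muscle, therefore has no measured level here. Its only probe lay between 5.16 and 5.61 on the log2 scale, below the detection limit throughout. Tagln was measured only because its probe was detected on the single E14 array. Probes of a gene differ in binding strength, so levels are compared between hearts for the same probe only.

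Acta2, which encodes the alpha-actin of smooth muscle, gave the same order of groups on each of its 4 measured probes: adult wildtype lowest, then 72 h, MCM and 1 week, with E14 highest. On the brightest probe (ILMN_2693895) the normalized log2 signals were 15.65, 15.40 and 15.48 in the 1 week hearts and 14.20, 13.70 and 14.84 in the MCM hearts. The 72 h hearts gave 13.88, 14.06 and 14.09, the adult wildtype hearts 13.35 and 13.44, and the E14 heart 15.63. All 1 week hearts lay above all MCM and 72 h hearts, and the E14 value fell within the range of the 1 week hearts. The highest normalized signal on the arrays was 16.07, and saturated beads are not marked in the files, so a dimmer probe is given beside this one.

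On probe ILMN_2710353, log2 signals were 13.41, 13.31 and 13.10 at 1 week and 12.22, 11.90 and 12.97 in MCM hearts. They were 12, 11.95 and 12.25 at 72 h, 10.96 and 11.10 in adult wildtype hearts, and 13.88 at E14. The 1 week hearts again lay above all MCM hearts, and the E14 heart lay above all 1 week hearts. Probes ILMN_2923445 and ILMN_2710354 had means of 13.14 ± 0.06 and 13.68 ± 0.21 at 1 week (SD, n = 3) against 11.85 ± 0.59 and 12.77 ± 0.54 in MCM hearts (SD, n = 3). The spread of Acta2 was wider in the MCM group than in any other replicated group on all 4 probes, and MCM replicate 3 was its highest heart on each.

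**Figure D1:**
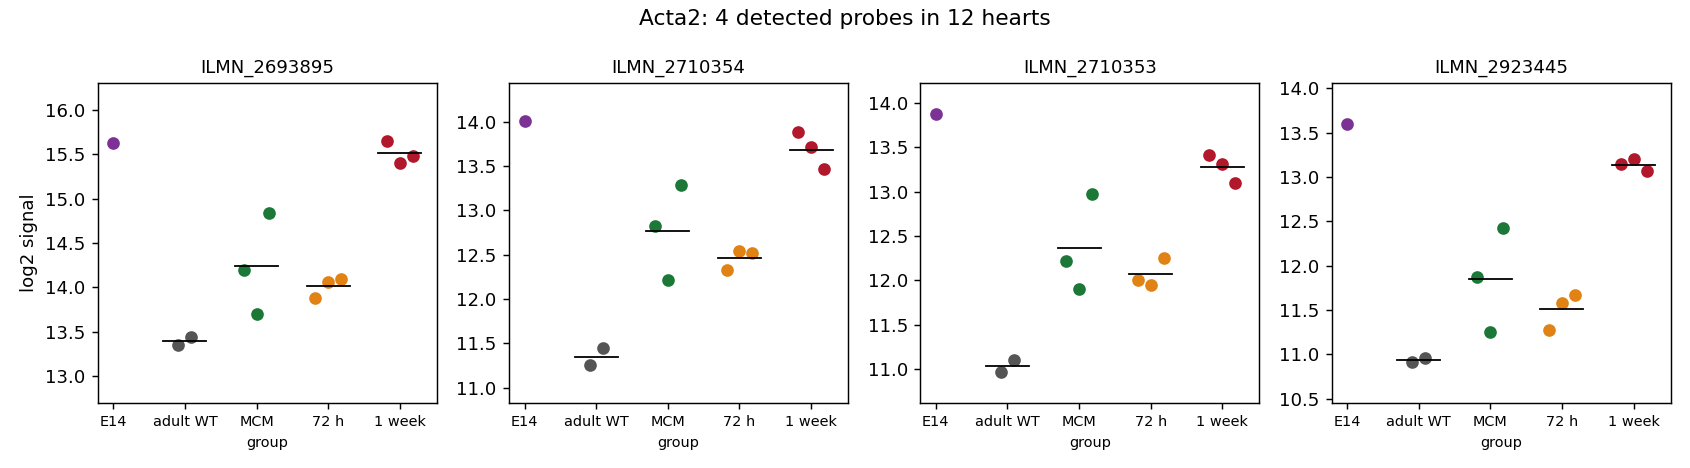
Normalized log2 signal of the 4 measured Acta2 probes (panels) in each of the 12 hearts (points) by group (horizontal axis), with the group mean as a line. The 1 week and E14 hearts lie at the top on every probe and the 2 adult wildtype hearts at the bottom, while the 72 h hearts lie within the range of the MCM hearts.

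The comparison of 1 week with MCM hearts asks what had changed after the longer induction. Acta2 rose 2.40-fold on ILMN_2693895 (log2 difference 1.26 ± 0.21, SE; limma adjusted p = 0.000359) and 2.45-fold on ILMN_2923445 (1.29 ± 0.22; adjusted p = 0.000393). It rose 1.88-fold on both ILMN_2710354 (0.91 ± 0.21; adjusted p = 0.00283) and ILMN_2710353 (adjusted p = 0.00293). Against the 72 h hearts the rise was 2.31- to 3.10-fold on the 4 probes, with adjusted p from 0.000113 to 0.000633, where 44.5% of all probes were called. Without MCM replicate 3 the log2 differences from MCM were larger, 1.17 to 1.58, and without 72 h replicate 2 they were 0.91 to 1.30. All 4 calls held in both cases. The rise from 72 h was 1.25 to 1.71 without 72 h replicate 3.

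The adult wildtype hearts were lower than the MCM hearts on all 4 Acta2 probes. The log2 differences ran from −1.42 ± 0.23 (ILMN_2710354, adjusted p = 0.00274) to −0.86 ± 0.24 (ILMN_2693895, adjusted p = 0.0483). Acta2 gave 4 calls, all lower, and the other 11 measured probes none, where 6.9% of all probes were called (3.22% up and 3.67% down). At an unadjusted p below 0.05 there were 7 among the 15, beside 3769 of all 18370 measured probes. Calls for the probes with the smaller differences were lost without MCM replicate 3: ILMN_2693895 then gave −0.56 (adjusted p = 0.0684) and ILMN_2923445 gave −0.62 (adjusted p = 0.0755). With the replicate number as a block both were lost too, at −0.75 (adjusted p = 0.0787) and −0.80 (adjusted p = 0.0761). The count of 4 became 8 without 72 h replicate 2, 1 without adult wildtype replicate 1, and 2 without adult wildtype replicate 2, any 1 week heart, or MCM replicate 1 or 3. The measured Acta2 means thus differed between these 2 control groups, and the number of calls depended on single hearts. The size of the rise at 1 week depends on which controls are used. Against adult wildtype hearts the 1 week hearts were 4.33- to 5.05-fold higher (adjusted p from 1.32e-05 to 2.95e-05).

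In the E14 heart, Acta2 exceeded the adult wildtype level by 4.72-fold (ILMN_2693895) to 7.21-fold (ILMN_2710353), with adjusted p from 9.03e-06 to 7.28e-05 on the 4 probes, where 55.8% of all probes were called. Between E14 and 1 week hearts none of the 4 probes passed the test in limma, nor had any an unadjusted p below 0.05, where 58% of all probes were called. Their log2 differences were 0.12 ± 0.30, 0.33 ± 0.29, 0.47 ± 0.31 and 0.61 ± 0.29 with E14 higher, and the smallest adjusted p was 0.0943. That the test was missed does not show that the levels were alike.

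Other actins were read by probes of their own. Actc1, the heart alpha-actin, gave a log2 difference of −0.21 between 1 week and MCM hearts (adjusted p = 0.106). Acta1, the skeletal alpha-actin, gave 0.13, and Actg2, the gamma-actin of smooth muscle, gave 0.45 (adjusted p = 0.404). At E14 Actg2, detected in 1 of the 2 adult wildtype hearts, was 3.58 ± 0.65 above them on the log2 scale (adjusted p = 0.000504), Acta1 was lower by 2.84 on the log2 scale (adjusted p = 0.00106), and Actc1 differed by −0.25. Probe sequences were not used here, so binding of a related actin transcript to an Acta2 probe was not tested.

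Smtn, which encodes smoothelin, a protein of the actin filaments in contractile smooth muscle cells, was the gene that fell most among the 9 at 1 week. On probe ILMN_2695181 the log2 signals were 11.33, 11.01 and 11.05 at 1 week against 12.79, 12.67 and 12.70 in MCM hearts. At 72 h they were 12.67, 11.91 and 12.89, in adult wildtype hearts 12.25 and 12.41, and at E14 10.86. Every 1 week heart lay below every MCM, 72 h and adult wildtype heart, and the E14 heart lay below them all. Replicate 2 was the lowest of the 72 h hearts on each Smtn probe.

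The fall of Smtn was 3.02-fold on ILMN_2695181 (log2 −1.59 ± 0.20, adjusted p = 4.12e-05) and 3.21-fold on ILMN_2955973 (−1.68 ± 0.18, adjusted p = 1.47e-05). On the dimmest probe (ILMN_2621581), detected in 1 of 3 hearts at 1 week, it was 2.49-fold (−1.32 ± 0.26, adjusted p = 0.00106). Against the 72 h hearts all 3 probes fell as well, by 2.19- to 2.57-fold (adjusted p from 0.000138 to 0.00362). Without 72 h replicate 2 these log2 differences were −1.33 to −1.66, and without 72 h replicate 3 they were −0.86 to −1.16. E14 was lower than adult wildtype by 2.77-fold (ILMN_2695181, adjusted p = 0.000992) and 2.87-fold (ILMN_2955973, adjusted p = 0.000403). The third probe gave −0.83 there (adjusted p = 0.0844).

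Myh11, the smooth muscle myosin heavy chain, had log2 signals of 8.06, 7.83 and 8.03 at 1 week and 9.15, 8.60 and 9.94 in MCM hearts. The 72 h hearts gave 8.36, 8.63 and 8.48, the adult wildtype hearts 8.93 and 8.99, and the E14 heart 8.04. All 1 week hearts lay below all others except the E14 heart, and MCM replicate 3 was the highest of the 12. The fall from MCM to 1 week was 2.38-fold (log2 −1.25 ± 0.25, adjusted p = 0.00133), and without MCM replicate 3 the log2 difference was −0.90 (adjusted p = 0.0021). Against adult wildtype hearts it was 1.97-fold (−0.98 ± 0.28, adjusted p = 0.0131). From 72 h to 1 week the difference was −0.52 (adjusted p = 0.117), which passed without MCM replicate 3 (adjusted p = 0.0223). E14 against adult wildtype gave −0.92 (adjusted p = 0.0573), which passed without that same MCM heart (adjusted p = 0.00727) and without 72 h replicate 2 (adjusted p = 0.0362), since all hearts share 1 estimate of the spread.

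Mylk, the kinase that phosphorylates myosin light chain to start contraction, fell at 1 week on 2 of its 3 measured probes. Probe ILMN_1219471 read 8.63, 8.85 and 8.74 at 1 week, 9.16, 9.14 and 9.55 in MCM hearts, and 8.95, 9.24 and 9.09 at 72 h. It read 9.41 and 9.37 in adult wildtype hearts and 9.62 at E14. The 1 week hearts were the lowest 3 of the 12 on this probe. Mylk fell 1.45-fold there at 1 week against MCM (−0.54 ± 0.14, adjusted p = 0.00541) and 1.35-fold on ILMN_1218347 (−0.43 ± 0.10, adjusted p = 0.00408). Probe ILMN_2662602 gave −0.15 (adjusted p = 0.409). Against adult wildtype hearts, ILMN_1218347 gave −0.01 at 1 week (adjusted p = 0.93). On that probe adult wildtype hearts were themselves lower than MCM hearts by −0.42, which missed the threshold (adjusted p = 0.0512). ILMN_1219471 gave −0.65 against adult wildtype hearts (adjusted p = 0.00408) and ILMN_2662602 gave −0.38 (adjusted p = 0.0726). The probes also differed in the other comparisons. On ILMN_1218347 E14 was 1.42-fold above adult wildtype (adjusted p = 0.0142), a call lost when arrays were scaled to their 75th percentile (0.18, adjusted p = 0.298) and without adult wildtype replicate 1 (0.47, adjusted p = 0.0587). ILMN_2662602 was lower at 72 h than in adult wildtype hearts by 0.61 on the log2 scale (adjusted p = 0.0408). That was 1 of 3 calls among the 15 probes, with ILMN_2710354 and ILMN_2710353 of Acta2 higher at 72 h, where 8.67% of all probes were called (4.38% up and 4.29% down).

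Tagln, the actin-binding protein transgelin (SM22), lay close to the detection limit. Its probe gave 6.28, 5.89 and 5.96 at 1 week, 6.62, 6.25 and 7.07 in MCM hearts, and 6.17, 6.88 and 6.01 at 72 h. It gave 6.82 and 7.11 in adult wildtype hearts and 7.43 at E14. It was detected in none of the 1 week hearts, in 1 of 3 MCM, 1 of 3 72 h and 1 of 2 adult wildtype hearts, and in the E14 heart. The values overlapped between 1 week and MCM, and the difference of −0.60 ± 0.25 did not pass the test (adjusted p = 0.0603). It did pass in 6 of the alternative analyses, with adjusted p from 0.0104 to 0.0473. Against adult wildtype hearts Tagln was at least 1.20-fold lower at 1 week (adjusted p = 0.0164), a bound set by the lowest detected signal. The 4-probe rise of Acta2 was therefore not accompanied by a measurable rise of Tagln.

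**Figure D2:**
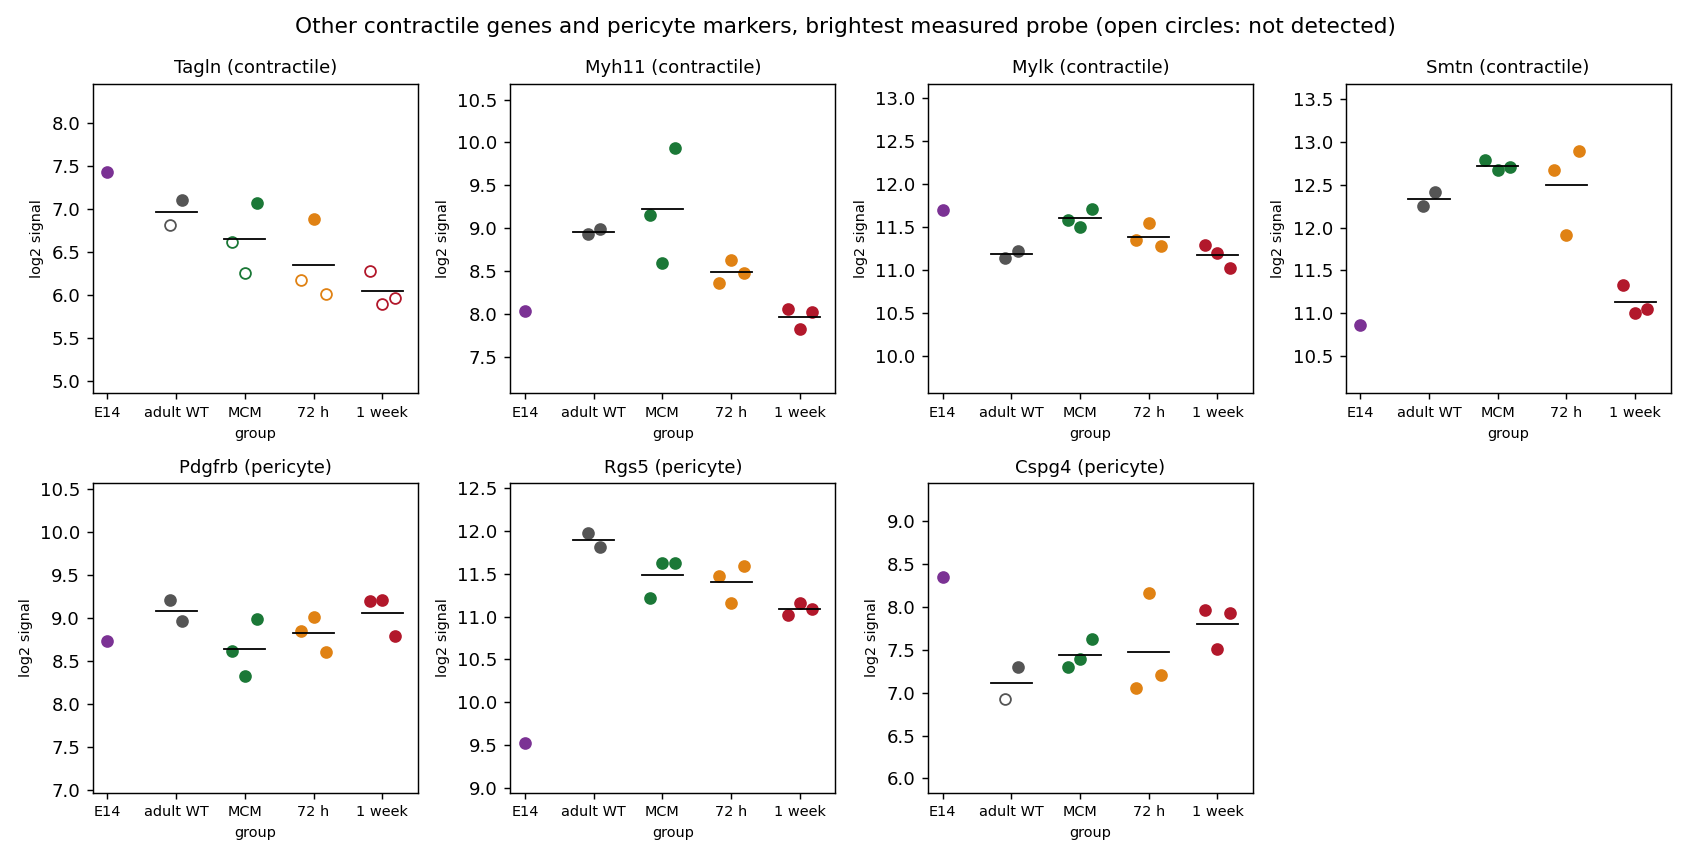
Normalized log2 signal of the brightest measured probe each of Tagln, Myh11, Mylk, Smtn, Pdgfrb, Rgs5 and Cspg4 in each of the 12 hearts by group, with open circles where a probe was not detected and lines at group means. Smtn and Myh11 are lower in the 1 week and E14 hearts than in MCM hearts, Rgs5 is lowest in the E14 heart, and the 1 week and MCM hearts overlap for Pdgfrb and Cspg4.

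Of the 3 pericyte markers, 1 was called against MCM after induction, Rgs5, at 1 week, where 52.8% of all probes were called. This gene encodes a protein that switches off G protein signalling and is abundant in pericytes. It read 11.02, 11.16 and 11.09 at 1 week and 11.22, 11.62 and 11.62 in MCM hearts. It read 11.47, 11.16 and 11.59 at 72 h, 11.97 and 11.81 in adult wildtype hearts, and 9.53 at E14. The E14 heart was far below all others, and the 1 week hearts lay just below the MCM hearts without overlap. Rgs5 fell 1.31-fold at 1 week against MCM (−0.39 ± 0.13, adjusted p = 0.0254). That call was lost without 1 week replicate 1 (adjusted p = 0.0809) or 3 (0.0622) and without MCM replicate 2 (0.0926) or 3 (0.0947). Against adult wildtype hearts the fall was 1.74-fold (−0.80 ± 0.15, adjusted p = 0.000938). At E14 it was 5.14-fold below adult wildtype (−2.36 ± 0.20, adjusted p = 1.1e-06) and differed from the 1 week hearts by −1.56 (adjusted p = 1.89e-05).

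Pdgfrb, the receptor for PDGF-B, read 9.20, 9.21 and 8.79 at 1 week and 8.62, 8.33 and 8.99 in MCM hearts. It read 8.85, 9.02 and 8.61 at 72 h, 9.21 and 8.97 in adult wildtype hearts, and 8.73 at E14. The 1 week and MCM hearts overlapped. The difference of 0.42 ± 0.18 between 1 week and MCM missed the threshold (adjusted p = 0.0734). It passed without 1 week replicate 3 (0.56, adjusted p = 0.0379), 72 h replicate 2 (0.42, adjusted p = 0.0447) or MCM replicate 3 (0.59, adjusted p = 0.0212), and with array weights (0.45, adjusted p = 0.0114). Against adult wildtype hearts the 1 week difference was −0.02 (adjusted p = 0.941), and adult wildtype hearts differed from MCM hearts by 0.44 (adjusted p = 0.252). E14 and adult wildtype differed by −0.36 (adjusted p = 0.287).

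Cspg4, the NG2 proteoglycan of pericytes, was dim. It read 7.96, 7.51 and 7.93 at 1 week, 7.30, 7.39 and 7.62 in MCM hearts, and 7.05, 8.16 and 7.21 at 72 h. It read 6.93 and 7.30 in adult wildtype hearts, where the first was not detected, and 8.34 at E14. The E14 heart was the highest, and 72 h replicate 2 stood above the other 72 h hearts. The difference between 1 week and MCM was 0.36 ± 0.26 (adjusted p = 0.264), and array weights brought it past the threshold at 0.46 (adjusted p = 0.03). E14 exceeded adult wildtype by 2.34-fold (1.23 ± 0.39, adjusted p = 0.0175), a call lost without adult wildtype replicate 1 (1.04, adjusted p = 0.0838). At E14, then, Rgs5 was lower and Cspg4 higher than in adult wildtype hearts, and Pdgfrb did not pass the test.

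Across the 15 measured probes, 4 rose and 7 fell at 1 week against MCM, and 52.8% of all 18370 measured probes were called in that comparison (24.9% up and 27.9% down). All 4 Acta2 probes rose, 6 of the 8 probes of other contractile genes fell and none rose, and 1 of 3 pericyte probes fell. The median log2 difference was 1.09 for Acta2 probes, −0.93 for other contractile probes and 0.36 for pericyte probes, beside −0.03 for all probes. The hearts of both groups did not overlap on 11 of the 15 probes, where 63.6% of all probes did not overlap. As a share, 73.3% of the 15 probes were called, several of them probes of the same gene, and with the brightest probe of each gene 5 of 8 genes were called, 1 up and 4 down. The array measures RNA from whole hearts, so fewer cells of a type and less RNA per cell cannot be told apart.

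**Figure D3:**
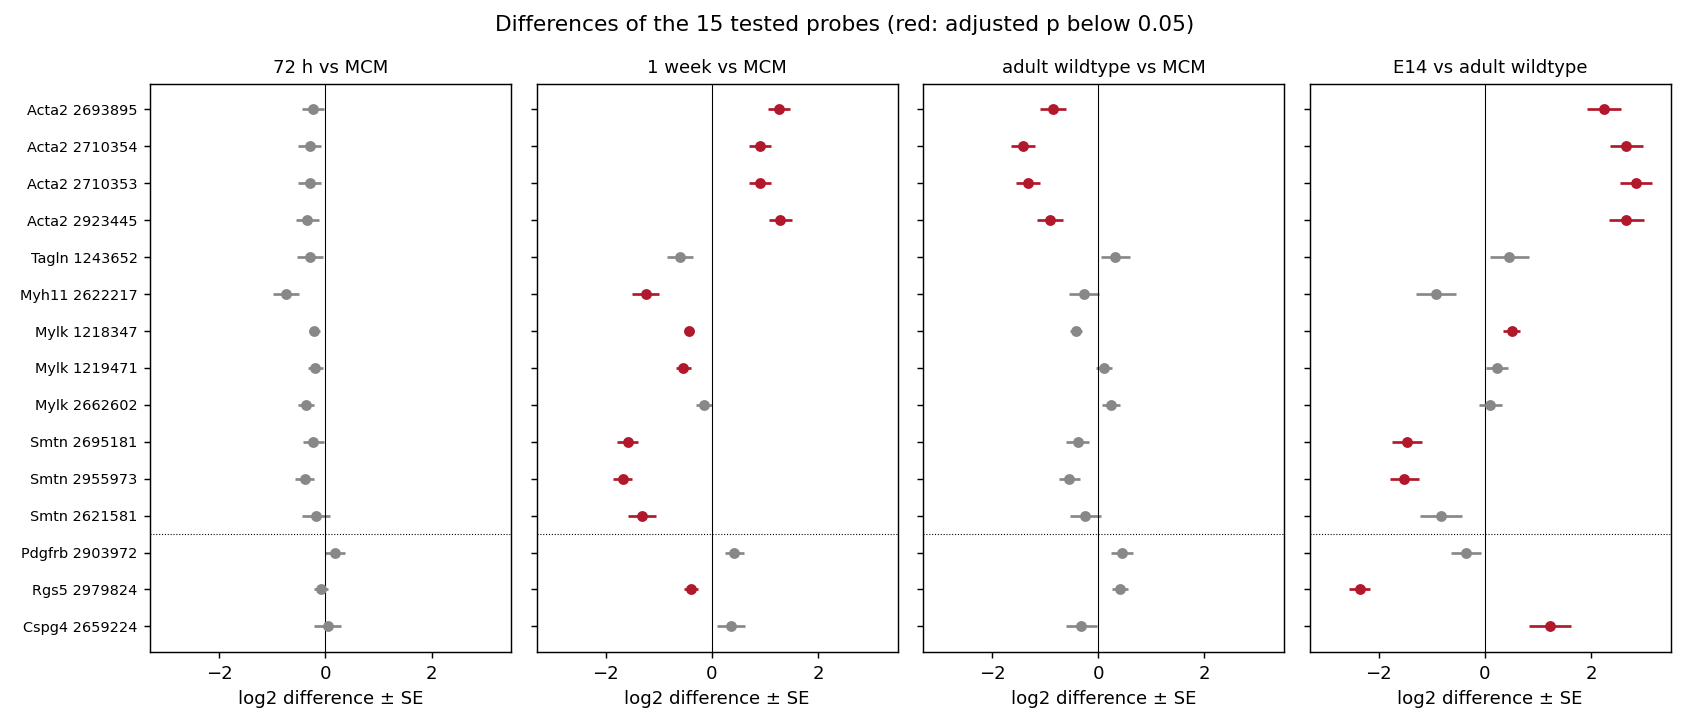
Log2 differences of the 15 measured probes with their standard errors, in a panel per comparison, red where the adjusted p was below 0.05. At 1 week the 4 Acta2 probes lie between 0.91 and 1.29 and the 3 Smtn probes between −1.68 and −1.32, while at 72 h no probe is red.

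At 72 h none of the 15 probes was called against MCM by limma, where 0.229% of all probes were. At an unadjusted p below 0.05 there were 3, beside 1403 of all 18370 measured probes. All 3 were lower at 72 h: Myh11 (−0.74 ± 0.25, unadjusted p = 0.0129), Mylk ILMN_2662602 (−0.37, unadjusted p = 0.0261) and Smtn ILMN_2955973 (−0.39, unadjusted p = 0.0499). Their adjusted p values were 0.606, 0.653 and 0.653. The Acta2 probes gave −0.34 to −0.24, and the pericyte markers gave 0.18 (Pdgfrb), 0.04 (Cspg4) and −0.08 (Rgs5). The groups overlapped on all 15 probes, where 11.1% of all probes did not overlap. Without 72 h replicate 2, Smtn differed from MCM by −0.12 to 0.06 and there was still no call. With array weights, which lean on replicate 1 among the 72 h hearts, 5 of the 15 probes were called lower, and 1844 of all 18370 probes were called. Without 72 h replicate 3 there was no call either.

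From 72 h to 1 week the 4 Acta2 probes rose and the 3 Smtn probes fell, and no other probe among the 15 passed (44.5% of all probes were called, 20.8% up and 23.7% down). On 9 of the 15 probes these groups did not overlap, where 51.4% of all probes did not overlap. Rgs5 gave −0.32 (adjusted p = 0.072) and Mylk ILMN_1219471 gave −0.35 (adjusted p = 0.0528). Without 72 h replicate 2, Rgs5 (−0.44, adjusted p = 0.00578) and Cspg4 (0.67, adjusted p = 0.00893) also passed. The contrast of E14 with adult wildtype called 9 of the 15 probes, 6 higher and 3 lower, where 55.8% of all probes were called (29.6% up and 26.2% down). All 15 probes lay outside the range of the adult wildtype hearts at E14, as did 92.1% of all probes, so that count says little with 1 heart against 2. Between adult wildtype and MCM hearts 10 probes did not overlap, where 43.2% of all probes did not overlap. Against adult wildtype, the 1 week hearts had 4 probes higher and 7 lower, where 47.8% of all probes were called (22.6% up and 25.2% down). The 2 comparisons of 1 week hearts share those hearts and are not independent.

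To set contractile genes against pericyte markers in each heart, each gene was represented by its brightest probe and centred on the MCM mean, and the median of the 3 pericyte genes was taken from that of the 5 measured contractile genes. This difference was −0.89, −0.82 and −0.82 at 1 week and 0.10, −0.35 and 0.25 in MCM hearts. It was −0.36, −0.56 and −0.29 at 72 h, −0.94 and −0.64 in adult wildtype hearts, and 0.01 at E14. The 1 week hearts lay below all MCM hearts, but so did both adult wildtype hearts. In each 1 week heart the median contractile gene was Tagln, which was not detected there. The differences of these hearts thus rest on a signal near background. The median over 5 genes hid opposite movements. At 1 week Acta2 stood 1.40, 1.16 and 1.23 above the MCM mean, while the median of the other contractile genes stood at −0.77, −1.07 and −0.94. That median lay midway between Tagln and Myh11 in each of these hearts, so it too rests in part on undetected Tagln. The pericyte median stood at 0.52, 0.07 and 0.14 in these hearts. In adult wildtype hearts, by contrast, Acta2 stood at −0.90 and −0.81, and the median of the other contractile genes at −0.38 and −0.28, so both lay below the MCM mean there.

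**Figure D4:**
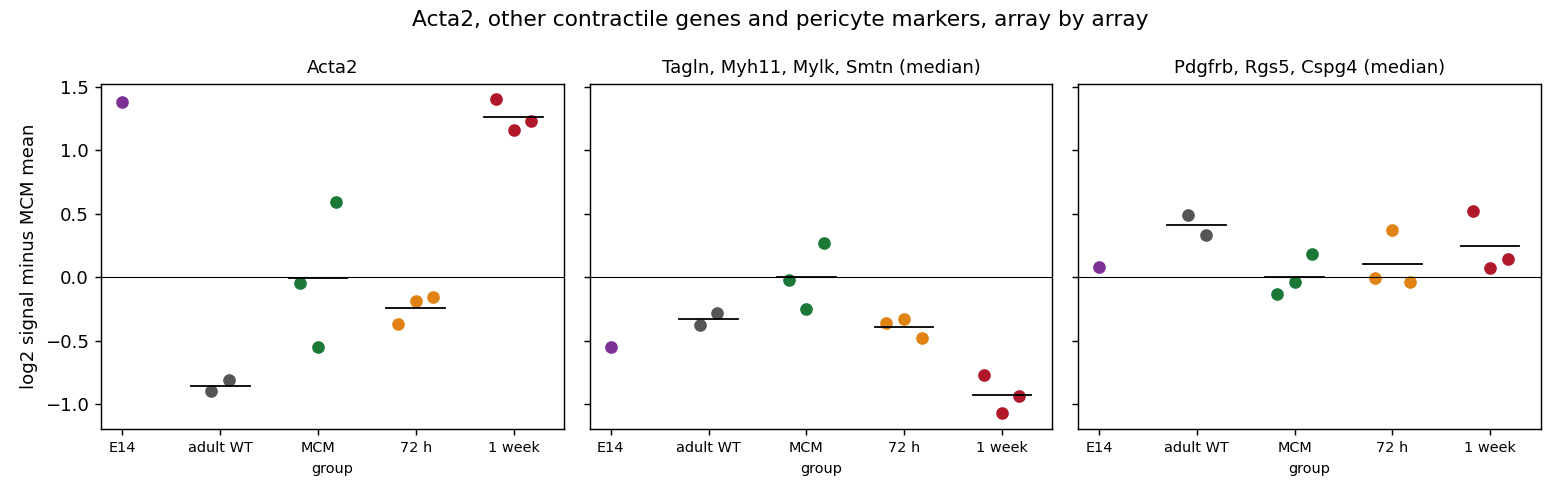
Log2 level relative to the MCM mean of Acta2, of the median of the other contractile genes and of the median of the pericyte markers in each of the 12 hearts (points) by group. At 1 week Acta2 lies above 1 and the median of the other contractile genes below −0.7 in all 3 hearts. In the E14 heart Acta2 lies at 1.38 and that median at −0.55. The genes behind that E14 median were split, with Tagln (0.79) and Mylk (0.09) above the MCM mean. Myh11 (−1.19) and Smtn (−1.86) were below it.

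Regulators of contractile genes were followed through a list of SRF and myocardin family genes. At 1 week against MCM 3 of 7 measured genes fell and none rose, beside 53.9% of the 10169 measured genes called in either direction. Myocd, myocardin, read 10.38, 10.17 and 10.01 at 1 week against 11.35, 11.23 and 11.39 in MCM hearts. It read 11.46, 11.34 and 11.39 at 72 h, 11.08 and 10.87 in adult wildtype hearts, and 11.57 at E14. The 1 week hearts were the lowest of the 12, with a fall of 2.20-fold (−1.14 ± 0.11, adjusted p = 6.81e-06). Fhl2, an SRF-binding cofactor, fell 2.48-fold (−1.31 ± 0.17, adjusted p = 7.13e-05). Srf itself gave 0.20 ± 0.09 (adjusted p = 0.0851), and Mrtfa and Mrtfb, which encode the related coactivators, had no measured probe. At E14 against adult wildtype 2 of the 7 rose, Gata6 by 0.69 and Myocd by 0.60 ± 0.16 on the log2 scale (adjusted p = 0.00213 and 0.00701), and 3 fell, with log2 differences of −3.28 for Fhl2 and −1.56 for Klf4 (57.3% of genes were called). The part of these regulators in the changes of the 9 genes was not tested.

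Other contractile and cytoskeletal genes of smooth muscle were split at 1 week: 10 of 23 measured genes rose and 4 fell, with a median log2 difference of 0.39 beside 0.00 for all measured genes, of which 53.9% were called. Vim, the intermediate filament vimentin, rose 2.91-fold (1.54 ± 0.28, adjusted p = 0.000606). Csrp1, a LIM protein of smooth muscle, rose 2.62-fold (1.39 ± 0.18, adjusted p = 5.78e-05). Nexn, an actin-binding protein that heart muscle expresses too, was not detected at 1 week and was at least 2.13-fold lower (adjusted p = 3.72e-05), and Pgm5, a protein of muscle cell adhesions, fell 2.27-fold (adjusted p = 1.17e-05). In the E14 comparison 13 of the 23 rose and 5 fell, where 57.3% of all genes were called, and Itga8 and Ppp1r14a were measured only through the E14 heart. Actg2 and Myl9, the regulatory light chain of smooth muscle myosin, rose by log2 differences of 3.58 and 3.32 (adjusted p = 0.000504 and 3.82e-05), and Actg2 was detected in 1 of the 2 adult hearts. Synpo2, an actin-bundling protein, was at least 3.78-fold lower, and Des, desmin, was 2.64-fold lower (adjusted p = 2.74e-06 and 0.00137).

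Further markers of pericytes gave 2 rises and 6 falls among 14 measured genes at 1 week, with a median of −0.19, and 53.9% of all genes were called there, a similar share. Cox4i2, a cytochrome oxidase subunit, was not detected at 1 week and was at least 2.80-fold lower (adjusted p = 6.68e-06). Abcc9, a subunit of ATP-sensitive potassium channels that heart muscle also expresses, fell 2.73-fold (adjusted p = 1.57e-05). Cd248, endosialin, rose 1.36-fold and Gja4, a connexin, 1.32-fold (adjusted p = 0.0441 and 0.0226). At E14, 2 of the 14 were higher than in adult wildtype hearts and 8 lower, with a median of −0.92, where 57.3% of all genes were called. Vtn, vitronectin, and Higd1b were not detected at E14 and were at least 7.46- and 5.36-fold lower (adjusted p = 7.29e-08 and 4.42e-07), and Mcam, an adhesion molecule, and Gja4 were 3.23- and 2.14-fold higher (adjusted p = 0.000139 and 0.000519).

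Among ligands, Pdgfb fell 1.53-fold (−0.61 ± 0.15, adjusted p = 0.00447) and Pdgfa 1.52-fold (adjusted p = 0.000232) at 1 week. The receptor gene Pdgfra, a fibroblast marker, rose 1.94-fold (adjusted p = 5.12e-05), so that 1 of 4 measured PDGF genes beside Pdgfrb rose and 2 fell (53.9% of all genes were called). At E14 Pdgfb was 2.62-fold below adult wildtype (adjusted p = 0.000214) and Pdgfa was 2.07-fold above it (adjusted p = 5.48e-05). The fourth gene, Pdgfc, was measured only through the E14 heart, so no comparison of that heart is given for it. Of 7 measured genes for TGF-beta ligands, receptors and SMADs, 4 rose and 1 fell at 1 week, beside that 53.9%. Tgfb2 rose 2.54-fold and Tgfb3 2.00-fold (adjusted p = 0.00221 and 0.00989), and Smad2 fell 1.37-fold (adjusted p = 0.00645). TGF-beta is an inducer of Acta2 in fibroblasts, and the part of these genes in the Acta2 result was not tested. At E14, where 57.3% of all genes were called, 3 of these 7 were higher, led by Tgfb2 (4.90-fold) and Tgfbr1 (2.55-fold).

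Markers of other cells moved with Acta2 at 1 week. Of 14 measured fibroblast and myofibroblast markers 9 rose and none fell, with a median log2 difference of 1.76, where 53.9% of all genes were called. Their summed log2 signal was 15.69 to 15.92 at 1 week, 15 to 15.31 in MCM hearts, 14.92 to 15.70 at 72 h, 15.16 to 15.24 in adult wildtype hearts and 15.13 at E14. Lox, which cross-links collagen, read 12.15, 12.67 and 12.23 at 1 week and 6.36, 6.38 and 7.45 in MCM hearts, 1 of which detected it (adjusted p = 8.69e-05). Tnc, tenascin C, was detected in no MCM heart and was at least 12.5-fold higher at 1 week (adjusted p = 0.00178). Postn and Ddr2 had no measured probe. In 72 h replicate 2 all 14 markers were detected and the sum was 15.70. Its brightest Acta2 probe read 14.06, between the other 72 h hearts, and ILMN_2923445 read 11.58, also between them. This heart was the highest of the 72 h hearts on ILMN_2710354, at 12.54, and the lowest on ILMN_2710353, at 11.95. The part of fibroblasts in the Acta2 result was not tested.

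All 8 measured macrophage and leukocyte markers rose at 1 week (53.9% of all genes were called), but Fcer1g was measured only through the 1 week hearts and had to be high there. The list had summed log2 signals of 14.75 to 14.99 against 12.06 to 12.24 in MCM hearts and 12.05 to 13.82 at 72 h. Lgals3 (galectin-3) and Cd14 led, with log2 differences of 4.86 and 4.10 (adjusted p = 2.64e-05 and 1.4e-06). Endothelial markers gave 3 rises and 3 falls among 10, a share near that 53.9%, with summed signals of 14.62 to 14.76 at 1 week and 14.49 to 14.53 in MCM hearts. Cldn5 (claudin-5) rose 3.54-fold and Vwf 1.67-fold, and Tek and Emcn fell 1.41- and 1.35-fold, with adjusted p from 3.26e-07 to 0.00616. Of 8 cardiomyocyte markers 3 fell and none rose, among them Myh6 by at least 1.99-fold and Ryr2 by 1.69-fold (adjusted p = 8.92e-06 and 0.000728), with summed signals of 18.33 to 18.35 against 18.53 to 18.61. Myh6 read 15.97 to 16.01 in MCM hearts, near the highest signal of 16.07, so its fall and the sum may be understated. The list of 6 fetal heart genes holds 4 sarcomere genes (Myh7, Acta1, Tnni1 and Myl4), none of them called, and the natriuretic peptide genes Nppa and Nppb, of which Nppb rose 4.31-fold (adjusted p = 0.00138). No atrial marker of 6 was called, nor had any an unadjusted p below 0.05. Of 6 fast skeletal muscle markers 2 fell, Mylpf by 1.86-fold and Pvalb by at least 1.58-fold (adjusted p = 0.0075 and 0.0289). The part of any of these lists in the falls of Smtn, Myh11 and Mylk was not tested.

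Against adult wildtype hearts, 57.3% of all genes were called in the E14 heart. Of 8 macrophage and leukocyte markers 3 were lower and none higher, with a summed signal of 10.57 against 12.34 and 12.41. Fibroblast and myofibroblast markers gave 7 higher and 3 lower of 14, cardiomyocyte markers 5 lower of 8, endothelial markers 4 lower of 10, fetal heart genes 2 higher and 2 lower of 6, and fast skeletal markers 3 higher and 1 lower of 6. Tnni1 among the fetal genes and Tnnt3 and Tnnc2 among the fast skeletal markers were measured only through the E14 heart. No atrial marker was called. The part of these lists in the E14 values of the 9 genes was not tested.

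At 72 h none of the 12 lists held a called gene in limma, where 0.266% of all measured genes were called. At an unadjusted p below 0.05 there were 3 of 23 contractile and cytoskeletal genes, 2 of 14 pericyte markers, 3 of 8 macrophage and leukocyte markers, 1 of 7 TGF-beta genes and none in the other 8 lists. Among all 18370 measured probes there were 1403. Between adult wildtype and MCM hearts, where 6.3% of genes were called, 3 of 10 endothelial markers were higher in wildtype and 2 of 6 fast skeletal markers lower. The contractile and cytoskeletal list and the TGF-beta list each had 1 gene higher and 1 lower, and the remaining 8 lists had none. At an unadjusted p below 0.05 those 8 held 2 of 7 SRF and myocardin genes, 2 of 14 pericyte markers, 1 of 4 PDGF genes, 1 of 6 fetal heart genes and no other. Among all 18370 measured probes there were 3769. Csrp1 was the contractile gene that was lower: it was not detected in either adult wildtype heart, at 6.25 and 5.50, while MCM hearts read 9.58, 9.54 and 9.68.

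Patterns most like those of Acta2, Tagln and Rgs5 were sought among all other named genes by the root mean square distance between their 4 log2 differences from MCM (72 h, 1 week, adult wildtype and E14), each gene by its brightest probe. Nearest to Acta2 were Arid3a (0.323), Tdg-ps2 (0.337) and Mapk8ip1 (0.345), which were detected on 8, 2 and 4 of the 12 arrays. Nearest to Tagln, itself detected on 4 arrays, were Ireb2 (0.062), Fbf1 (0.087) and Nup54 (0.092), detected on 12, 5 and 1, so these distances are mostly between signals near background. Nearest to Rgs5 were Slc12a7 (0.064), Gfod1 (0.092) and Vamp5 (0.095), all detected on 12 arrays. None of these neighbours is a contractile gene of the lists used here.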

How the data were processed

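Per the file headers, the deposited array files gave for each probe its average bead intensity (linear, not normalized), the number and spread of its beads, and a detection score, a fraction between 0 and 1. No scanner software is named. In the authors' deposited value table, normalized intensity had column medians of 129.5 to 129.8. A quantile mapping onto adult wildtype replicate 1 with 100 quantiles, recomputed from the authors' deposited program, gave all its values within 0.001, so its scale is linear and nothing in it is centred or signed. That match linked all 45281 probes to the platform annotation, in which 34885 had 1 gene symbol, 18 several and 10378 none, and none was named from several. Symbols were updated by gene identifier through RefSeq (GRCm38.p6), and 78 kept the annotation's symbol.

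Background was corrected by nec in limma 3.58.1 (R 4.3.3, offset 16) from detection p, 1 minus the score, and signals were quantile normalized and put on a log2 scale. The 18370 probes that some group detected on all its arrays (p below 0.01) were kept, naming 10169 genes. Groups were compared by limma (lmFit on 5 group means over 12 arrays, eBayes with an intensity trend, 7 residual degrees of freedom), with Benjamini-Hochberg adjusted p below 0.05 over all kept probes counted as a call. All adjusted p values come from this fit, and the number of arrays limits its precision. Fold changes are on the scale of signal plus offset and understate the change of dim probes. A group without a detected array gives a bound: there, each array's value is raised to its lowest detected signal where it is below that, before averaging. The steps were tested on simulated data.

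The 9 genes and the lists beside them were chosen with earlier results of these data known. Named were every probe of the 9 genes, up to 2 called genes with the largest rise and 2 with the largest fall per list at 1 week against MCM and at E14 against adult wildtype, Srf, Myocd, Mrtfa, Mrtfb and Pdgfb, and the 3 nearest patterns of Acta2, Tagln and Rgs5. The other actins and Csrp1 in adult wildtype hearts were named after their values were seen. Alternatives were other background corrections, scalings, filters and spread models, the authors' table, 1 probe per gene, a replicate block and leaving out each array.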

Additional observations from a re-analysis of the deposited data

Results flagged for a closer look

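The effect of induction against the MCM hearts differed between 1 week and 72 h on 7 of the 15 measured probes, by the limma test of 1 week against 72 h hearts, in which the MCM hearts cancel and which called 44.5% of all probes. They belong to 2 of the 8 measured genes. For Acta2, the effect at 1 week minus that at 72 h was 1.5 (ILMN_2693895), 1.22 (ILMN_2710354), 1.20 (ILMN_2710353) and 1.63 (ILMN_2923445) on the log2 scale. For Smtn it was −1.36 (ILMN_2695181), −1.29 (ILMN_2955973) and −1.13 (ILMN_2621581). All 3 hearts of 1 week lay on 1 side of all 3 hearts of 72 h on each of these 7 probes, as on 51.4% of all probes. The 7 probes were picked by the test of these same hearts, so that separation adds no support.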

How the results depend on the processing

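Probe by probe, 1502 of 1585 alternative values stayed on their side of the threshold, 54 newly passed it, 29 no longer passed, none that was called changed sign and 10 uncalled ones did. The count at 72 h against MCM (0) became 5 with array weights and 3 with adult wildtype in place of MCM, and was 0 without each array in turn. With 1 probe per gene, which leaves fewer probes to call, the counts were 5 at 1 week (11 with all probes), 2 from 72 h to 1 week (7), 5 at E14 (9) and 0 for adult wildtype against MCM (4). Array weights gave 12 from 72 h to 1 week and 8 for adult wildtype against MCM. That last count was 2 without an intensity trend, 7 with only the compared groups fitted, and 1 to 8 without each array, 8 without 72 h replicate 2 and 1 without adult wildtype replicate 1. Leaving out arrays gave 10 to 13 at 1 week, 7 to 9 from 72 h and 7 to 11 at E14.

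The median difference of contractile genes minus that of pericyte markers was −0.96 at 1 week against MCM (−0.68 without background correction, −0.74 with offset 50, −0.66 in the authors' table with pseudocount 1, −1.07 to −0.84 without each array). It was −0.28 at 72 h (−0.51 to −0.23 without each array), −0.55 from 72 h to 1 week (−0.33 over probes detected on all 12 arrays, −0.62 to −0.40) and −0.80 in adult wildtype against MCM (−0.94 to −0.63). At E14 it was 0.83 (0.61 without background correction, 0.59 with 75th percentile scaling, 0.59 in the authors' table, 1.16 over probes detected on all arrays, 0.56 to 1.02 without each array). The causes of these shifts were not tested. At 1 week the median contractile gene was Tagln, undetected there and not called against MCM (−0.60) or 72 h (−0.31). Over probes detected on all 12 arrays, which leaves Tagln and Cspg4 out, the difference from MCM was −0.86. The E14 value sets Tagln (0.46), measured only through that heart, against Pdgfrb (−0.36). Neither was called, so 0.83 is not read as a result. Scaling to the 75th percentile moved the median of all probes at E14 from 0.07 to −0.05.

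Same-numbered arrays correlated in their deviations at −0.046 to 0.275, not all over 0.1, so the numbers were not taken as pairs. With so few arrays per group these correlations cannot exclude pairing. With the replicate number as a block the counts were 0 at 72 h, 11 at 1 week, 7 from 72 h to 1 week and 2 for adult wildtype against MCM. No paired analysis was possible for E14 because it is 1 array, and a slide block was not run because the files name no slides.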
